A study of Homo sapiens with 21 samples.

Results

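A set of 35 genes of the heat-shock response and the unfolded protein response, out of 19974 protein-coding genes, was scored in 14 ChIP-seq peak lists from CAMA1 cells. The genes were taken by name, by no measured value: 14 encode cytosolic or nuclear chaperones and co-chaperones, 3 mitochondrial chaperones, 11 proteins of the endoplasmic reticulum (ER), 3 ER stress sensors and 4 transcription factors. CAMA1 is a breast cancer line that expresses the oestrogen receptor and, by its labels, carries an amplified FGFR1 gene; it was used at a low passage. All cells of the study had been kept without estradiol for 48 h. Untransfected cells were profiled with antibodies against FGFR1 (a cell-surface kinase that binds fibroblast growth factors), H3K4me3 (a histone mark of promoters), H3K27ac (a histone mark of promoters and enhancers in use), the CTD of Rpb1 (clone 4H8, in libraries titled Pol II S5P) and HNF-3α (FOXA1, a pioneer transcription factor of luminal breast cells). Other cells received a control siRNA without a target (siNT) or an siRNA against FOXA1 (siFOXA1), and FGFR1 was mapped in them 72 h later. Each of the 7 groups had 2 lists; 7 input libraries were not used here. The labels do not say whether replicates were separate cultures, and the spread within a group may be technical only. FOXA1 was not profiled after transfection in the lists used here, so the knockdown itself was not checked.

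The heat-shock response is run by HSF1, which in unstressed cells is held inactive by chaperones and, once released, binds repeats of the heat-shock element in the promoters of HSP70, HSP90, HSP40 and small heat-shock protein genes. The unfolded protein response is its counterpart for the ER: the sensors IRE1 (gene ERN1), PERK (EIF2AK3) and ATF6 detect unfolded protein in the ER and raise the transcription of ER chaperones and folding enzymes through ER stress elements, and of DDIT3 through ATF4. Many chaperone genes are also transcribed at high levels without stress, and their products fold many receptors and kinases. The labels name no heat shock or ER stress treatment.

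The promoters of the genes that the results turn on are shown as the 230 bases upstream of a RefSeq start (assembly GRCh38.p14, the primary assembly of hg38), 5′ to 3′ on the strand of the gene. The 6 cytosolic chaperone and co-chaperone genes come first because they hold the heat-shock core and range in FGFR1 signal from strong peaks in both lists (HSPA1A, HSPA1B and DNAJB1) to none (CHORDC1). Capitals mark each match to the heat-shock core, spelled GAANNTTC or TTCNNGAA, and to the TATA box TATAAA. The stretches lie at chr6:31815313-31815542 on the plus strand for HSPA1A, chr6:31827508-31827737 on the plus strand for HSPA1B, chr19:14518398-14518627 on the minus strand for DNAJB1, chr14:102087045-102087274 on the minus strand for HSP90AA1, chr11:123062137-123062366 on the minus strand for HSPA8 and chr11:90223050-90223279 on the minus strand for CHORDC1.
HSPA1A: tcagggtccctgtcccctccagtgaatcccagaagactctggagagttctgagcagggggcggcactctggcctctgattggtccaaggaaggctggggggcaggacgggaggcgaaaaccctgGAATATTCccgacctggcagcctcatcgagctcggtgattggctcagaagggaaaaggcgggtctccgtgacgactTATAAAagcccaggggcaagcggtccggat
HSPA1B: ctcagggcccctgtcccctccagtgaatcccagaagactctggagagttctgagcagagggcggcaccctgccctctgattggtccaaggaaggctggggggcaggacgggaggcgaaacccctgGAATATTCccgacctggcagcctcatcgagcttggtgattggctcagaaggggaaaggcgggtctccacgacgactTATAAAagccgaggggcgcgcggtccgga
DNAJB1: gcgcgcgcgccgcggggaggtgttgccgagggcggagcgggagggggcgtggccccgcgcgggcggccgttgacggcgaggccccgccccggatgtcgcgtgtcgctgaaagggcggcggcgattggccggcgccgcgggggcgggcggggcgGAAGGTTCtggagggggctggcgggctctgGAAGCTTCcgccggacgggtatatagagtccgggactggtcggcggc
HSP90AA1: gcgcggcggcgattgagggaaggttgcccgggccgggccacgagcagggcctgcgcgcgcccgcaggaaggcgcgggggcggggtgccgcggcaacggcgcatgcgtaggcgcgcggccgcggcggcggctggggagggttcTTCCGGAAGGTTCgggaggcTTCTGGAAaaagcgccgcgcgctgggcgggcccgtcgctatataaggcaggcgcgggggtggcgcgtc
HSPA8: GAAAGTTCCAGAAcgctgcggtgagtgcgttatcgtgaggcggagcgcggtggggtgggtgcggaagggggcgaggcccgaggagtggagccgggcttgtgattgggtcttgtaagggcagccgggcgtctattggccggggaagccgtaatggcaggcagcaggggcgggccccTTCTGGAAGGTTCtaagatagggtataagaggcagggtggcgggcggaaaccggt
CHORDC1: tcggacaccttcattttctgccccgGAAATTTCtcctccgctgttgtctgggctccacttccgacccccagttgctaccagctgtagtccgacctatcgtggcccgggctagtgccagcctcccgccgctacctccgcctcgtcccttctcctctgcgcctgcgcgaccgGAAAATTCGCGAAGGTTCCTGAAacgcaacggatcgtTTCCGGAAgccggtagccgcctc

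The promoters of 5 ER genes are shown for the elements named after the ER stress response. Capitals mark the ER stress element, CCAAT and CCACG at a fixed spacing on either strand (HSPA5, HSP90B1, CALR and PDIA6), the ER stress element II, ATTGG and CCACG a single base apart, and the C/EBP-ATF element TTGCATCA (both in HERPUD1), and the TATA box. They lie at chr9:125241344-125241573 on the minus strand for HSPA5, chr12:103930180-103930409 on the plus strand for HSP90B1, chr19:12938379-12938608 on the plus strand for CALR, chr2:10812786-10813015 on the minus strand for PDIA6 and chr16:56931912-56932141 on the plus strand for HERPUD1.
HSPA5: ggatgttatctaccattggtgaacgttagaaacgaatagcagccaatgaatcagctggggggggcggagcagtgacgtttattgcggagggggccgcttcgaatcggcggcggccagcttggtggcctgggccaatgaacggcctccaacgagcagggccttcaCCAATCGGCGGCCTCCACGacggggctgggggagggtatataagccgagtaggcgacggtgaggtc
HSP90B1: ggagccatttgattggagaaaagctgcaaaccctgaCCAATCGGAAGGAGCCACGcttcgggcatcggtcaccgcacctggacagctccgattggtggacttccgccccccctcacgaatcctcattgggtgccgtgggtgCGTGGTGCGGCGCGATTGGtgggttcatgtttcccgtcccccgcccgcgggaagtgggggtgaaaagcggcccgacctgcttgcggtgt
CALR: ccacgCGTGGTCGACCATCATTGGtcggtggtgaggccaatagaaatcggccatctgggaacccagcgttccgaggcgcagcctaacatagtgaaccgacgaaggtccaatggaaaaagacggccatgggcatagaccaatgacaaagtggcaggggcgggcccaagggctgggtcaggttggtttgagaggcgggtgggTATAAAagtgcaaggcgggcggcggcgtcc
PDIA6: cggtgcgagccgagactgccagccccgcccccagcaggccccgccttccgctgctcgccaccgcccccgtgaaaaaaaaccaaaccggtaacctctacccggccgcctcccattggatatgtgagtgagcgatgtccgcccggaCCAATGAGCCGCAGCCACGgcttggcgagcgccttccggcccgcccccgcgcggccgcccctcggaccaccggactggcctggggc
HERPUD1: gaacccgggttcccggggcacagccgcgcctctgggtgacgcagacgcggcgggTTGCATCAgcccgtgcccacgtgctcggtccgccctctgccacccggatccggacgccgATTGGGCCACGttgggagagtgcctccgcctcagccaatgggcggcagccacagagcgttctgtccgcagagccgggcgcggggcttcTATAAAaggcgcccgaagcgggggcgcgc

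The elements were counted in the members' promoter windows (250 bases before to 50 after a start) and in those of other genes, as a description of sequence only. The heat-shock core was in 14 of 47 windows of the members, from 13 genes, or 29.8%, beside 11.6% of 22085 windows of other genes. The ER stress element was in 7 windows of the members, from CALR, CANX, HSP90B1, HSPA5 and PDIA6, or 14.9% beside 0.0724%. The windows of CANX that hold it overlap and share a single element, so the 14.9% counts that element more than once. HERPUD1, which helps to clear misfolded protein from the ER, alone held the ER stress element II (0.0634% of other windows) and the C/EBP-ATF element (0.675%), each in 1 window of the members (2.13%). TATAAA was found in 8 windows of the members, from 7 genes, or 17% beside 9.45%. HSPA1A, HSPA1B, CALR and HERPUD1 were among these genes, and the windows of ATF4 share a single TATAAA. The cyclic AMP response element TGACGTCA was in 1 window, of HSP90AB1, a share of 2.13% beside 2.26%.

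A gene was called for a target when each of the 2 lists held a peak overlapping a window of 1 kb to each side of either end of the annotated gene. The yardstick was the 13230 other protein-coding genes called for H3K4me3. In the lists, peaks carry a fold enrichment, the pileup of fragments at the summit over a background, as the authors' caller gave it. A single background for the whole list could be read from the folds, except in both Pol II S5P lists. The lists were called separately and differ in depth and length, so folds were not compared between lists, and the members, chosen with earlier results of these data known, were given no test. On chromosomes 1 to 22 and X there were 5341 and 13135 peaks for untransfected FGFR1; the siNT lists held 6007 and 6594 and the siFOXA1 lists 4332 and 5056, at backgrounds of 3.4 and 3.5, of 2.19 in both, and of 2.11 and 2.2 fragments. The other lists had from 12267 peaks (Pol II S5P list 2) to 154358 (H3K27ac list 1). Of 8 luminal marker genes 7 were called for H3K4me3; at RefSeq starts 6 were, with ESR1 gained and KRT18 and TFF1 lost. Of 6 basal or mesenchymal markers ZEB1 and SNAI2 were called, while KRT5, KRT14, TP63 and VIM were not, and of 3 haematopoietic markers CD3E was; at RefSeq starts SNAI2 and CD3E were not.

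Nearly all members had active promoters. H3K4me3 was called at 34 of 35 members, where 66.4% of all other protein-coding genes were called; PDIA6, a protein disulphide isomerase, had no peak at its annotated ends but folds of 94 and 95 at a RefSeq start between them. All 34 were called for H3K27ac, beside 95.1% of the other marked genes. Pol II S5P was called at 30 of 34, or 88.2%, beside 58.1%; the exceptions were DNAJB1, HSPA13, HSF2 and ATF6, the last with a peak of 5.37 in list 1 alone. FOXA1 was called at 21 of 34, or 61.8%, beside 44.1%. At RefSeq starts the calls were 32 of 32 for H3K27ac (beside 95.4%), 29 for Pol II S5P (90.6% beside 59.7%) and 18 for FOXA1 (56.2% beside 41.4%). FGFR1 was called in untransfected cells at 19 of 34, or 55.9%, beside 29.6% (95% Wilson interval 28.9 to 30.4, counting error only). The longer FGFR1 list 2 had a peak at 28 of the 34 (82.4% beside 61.8%) and list 1 at 19 (55.9% beside 29.8%), so list 1 set the count.

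**Figure D1:**
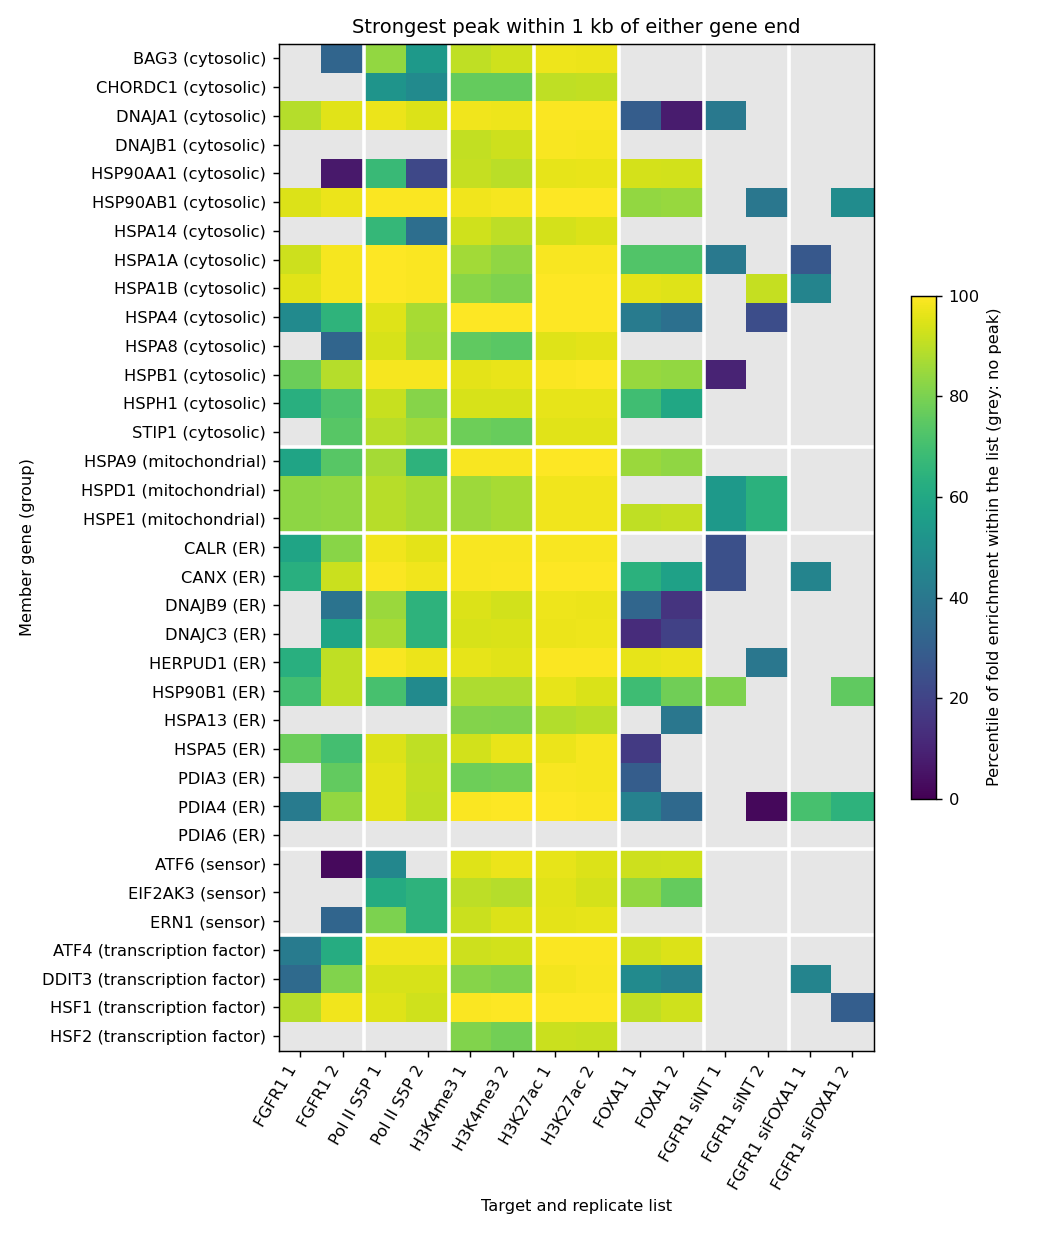
Strongest peak of each of the 35 members (rows, by group) within 1 kb of either gene end in each of the 14 lists (columns, target and list number), coloured by the percentile of its fold enrichment within that list, with grey for no peak. H3K4me3 and H3K27ac fill nearly every row, Pol II S5P 30 rows in both lists, FGFR1 19 in both lists and 28 in list 2, while the 4 columns of transfected cells are mostly grey.

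The inducible HSP70 genes were among the members with the strongest FGFR1 peaks. HSPA1A and HSPA1B encode the stress-inducible HSP70 and lie in the major histocompatibility complex on chromosome 6, at 31815543 to 31817942 and 31827738 to 31830254. At HSPA1B the FGFR1 fold was 11.8 in list 1 and 18.9 in list 2, the highest of the members in each. These peaks held 51 fragments at the summit (95% exact Poisson interval 38 to 67.1) and 84 (67 to 104), and stood at the 95.4th and 98.7th percentiles of their lists. At HSPA1A the folds were 10 and 18.7, from 43 and 83 fragments. The intervals cover counting error only.

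Pol II S5P was also high at both inducible genes, with folds of 39.5 and 27.8 at HSPA1B and 32.5 and 28.2 at HSPA1A, both at their starts. The strongest H3K27ac peaks in the windows were at the far ends of the genes, with folds of 56 and 60 at HSPA1B and 46.5 and 49.6 at HSPA1A. The peak of 46.5 and 49.6 also comes within 1 kb of the start of HSPA1B and is the strongest one listed there, and at the start of HSPA1A the folds were 44.3 and 45.5. FOXA1 was stronger at HSPA1B (37.1 and 32.6) than at HSPA1A (11.3 and 10.7) in both lists. The promoters of the genes are near copies: over the 250 bases upstream of the start, 235 of 251 aligned columns were identical (93.6%). How reads from such copies were assigned is not given in the sources used here, so the values of either gene are uncertain, and HSPA1L, a neighbour with an end in the window of HSPA1A, shares its peaks.

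The other HSP70 genes of the cytosol were lower. HSPA4, an HSP110-type exchange factor, had FGFR1 folds of 5.23 and 6.22, and HSPH1, another of that type, 5.91 and 6.88. HSPA8, the constitutive HSC70, had no FGFR1 peak in list 1 and a fold of 4.44 in list 2. Its promoter carries 4 matches to the heat-shock core, in overlapping pairs, and Pol II S5P stood at 14.8 and 10.6. HSPA14, a ribosome-associated HSP70, had no FGFR1 peak in either list, with Pol II S5P at 7.58 and 5.44. HSPA8 and the inducible HSPA1A and HSPA1B thus fell on different sides of the call.

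The HSP90 genes showed how much the choice of gene end matters. HSP90AB1, the constitutive cytosolic HSP90, had FGFR1 folds of 11.1 and 15.3, from 48 and 68 fragments, with Pol II S5P at 30 and 28.4 and FOXA1 at 17.1 and 16.9; SLC35B2 has an end in the same window. HSP90AA1, the inducible form, had a fold of 3.55 in list 2 alone at its annotated ends. At an internal RefSeq start, the one shown above, its folds were 4.78 and 10.2, from 20 and 45 fragments, and Pol II S5P was 20.8 and 17. The annotated gene reaches further upstream than this start, which lies outside both windows. FOXA1 folds of 30.9 and 27.7 were at the upstream end of HSP90AA1, another RefSeq start, and not at the internal start that holds the stronger FGFR1 peaks.

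The HSP40 genes DNAJA1 and DNAJB1 encode proteins whose J domains drive the ATPase of HSP70. DNAJA1 had FGFR1 folds of 8.87 and 13.5 at its annotated ends, with Pol II S5P at 18.6 and 14.1. DNAJB1, the main stress-inducible HSP40, had no FGFR1 or Pol II S5P peak at its annotated ends. At a RefSeq start inside the gene its FGFR1 folds were 11.1 and 12, from 48 and 53 fragments, and its Pol II S5P folds 20.3 and 14.6. There DNAJB1 ranked at the 94.6th and 93.8th percentiles of the FGFR1 lists.

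The small heat-shock protein gene HSPB1 (HSP27) had FGFR1 folds of 7.05 and 9.77. This strongest list 2 peak lies at the far end of the short gene, and at its RefSeq start list 2 had a peak of 8.88. The co-chaperone genes were lower. STIP1, which links HSP70 to HSP90, had a peak in list 2 alone, at 7.11, and BAG3, a nucleotide exchange factor of HSP70 in selective autophagy, one of 4.44. CHORDC1, a partner of HSP90, had no FGFR1 peak in either list. Its promoter holds 6 matches to the heat-shock core, some of them overlapping, more than any other member's. Pol II S5P at CHORDC1 was 5.81 and 6.11, among the lowest of the members that had it.

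All 3 mitochondrial chaperone genes were called for FGFR1. HSPD1 (HSP60) and HSPE1 (HSP10) encode the chaperonin and its lid, are divergently arranged on chromosome 2 with starts close together, and share the peaks between them, with folds of 7.73 and 8.44. They are therefore a single region, and counted once the members called number 18. HSPA9 (mortalin), the mitochondrial HSP70, had folds of 5.69 and 7.11 on chromosome 5. Pol II S5P was 12.4 and 10.8 at the shared region and 11.5 and 7.45 at HSPA9. FOXA1 was called at HSPA9 (18.4 and 16.1) and had no peak within 1 kb of the HSPD1 ends; the FOXA1 peaks of HSPE1 (24.8 and 24.7) lie at its far end and not at a start.

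Of the 11 ER genes, 6 were called for FGFR1. The chaperone HSPA5 (BiP), the master HSP70 of the ER, had folds of 7.05 and 6.66, from 30 and 29 fragments, and HSP90B1 (GRP94), the ER HSP90, had 6.37 and 10.2. The lectin chaperone CALR had 5.69 and 8.22. Its membrane-bound relative CANX had 5.91 and 10.9 at its annotated end. That peak lies nearly 20 kb upstream of the RefSeq starts of CANX, where the folds were 7.28 and 9.55. The disulphide isomerase PDIA4 had 5 and 8.44, and HERPUD1 5.91 and 10.2.

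The other 5 ER genes had FGFR1 in list 2 alone or not at all. DNAJB9 (ERdj4) had a list 2 fold of 4.66, DNAJC3 (p58IPK, an inhibitor of PERK) 5.77 and the disulphide isomerase PDIA3 7.33. HSPA13, an HSP70 of the microsomes, had neither FGFR1 nor Pol II S5P, and its H3K27ac folds of 14.6 and 17.4 were the lowest of the members. PDIA6 had no peak of any target at its annotated ends, and at a RefSeq start an FGFR1 fold of 5.33 in list 2, from 23 fragments. FOXA1 was called at 6 of the ER genes, and at neither HSPA5 nor CALR.

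None of the 3 sensor genes was called. ERN1 had a list 2 fold of 4.44 and ATF6 one of 3.33, the lowest of any member with a peak, and EIF2AK3 had no FGFR1 peak, while H3K4me3 was above 97 in both lists at all 3. Of the transcription factors, HSF1 had folds of 8.87 and 16.2, but its window also holds ends of BOP1 and DGAT1, so the peaks cannot be assigned to it. ATF4 had 5 and 6, and DDIT3 (CHOP) 4.78 and 7.99 in a window shared with ends of MARS1 and MBD6. Ends of other genes also lie in windows of DNAJA1 (APTX), HSP90AA1 (WDR20), HSPA5 (RABEPK) and CANX (CBY3). Peaks there may not belong to the member alone. HSF2, a relative of HSF1 with a role in development, had neither FGFR1 nor Pol II S5P in either list.

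By compartment, FGFR1 was called at 7 of 14 cytosolic, 3 of 3 mitochondrial and 6 of 11 ER genes, with 29.6% of other marked genes called. Of the 11 ER genes 10 were marked by H3K4me3 at their ends, and PDIA6 was not. At RefSeq starts the counts were 9 of 13, 3 of 3 and 6 of 10, beside 29.9%, the 2 added cytosolic genes being DNAJB1 and HSP90AA1. List 2 taken by itself, whether or not list 1 had a peak, had one at 11 cytosolic, 3 mitochondrial and 9 ER genes. It had one at 61.8% of other marked genes. With so few genes, a shared region among the mitochondrial genes and members chosen by name, the compartments were not tested against each other. The members just inside and outside the call overlapped in signal. List 2 folds ran from 6 to 18.9 (median 8.44) at the 19 called genes. They ran from 3.33 to 7.33 (median 4.44) at the 9 with a peak in list 2 and none in list 1.

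**Figure D2:**
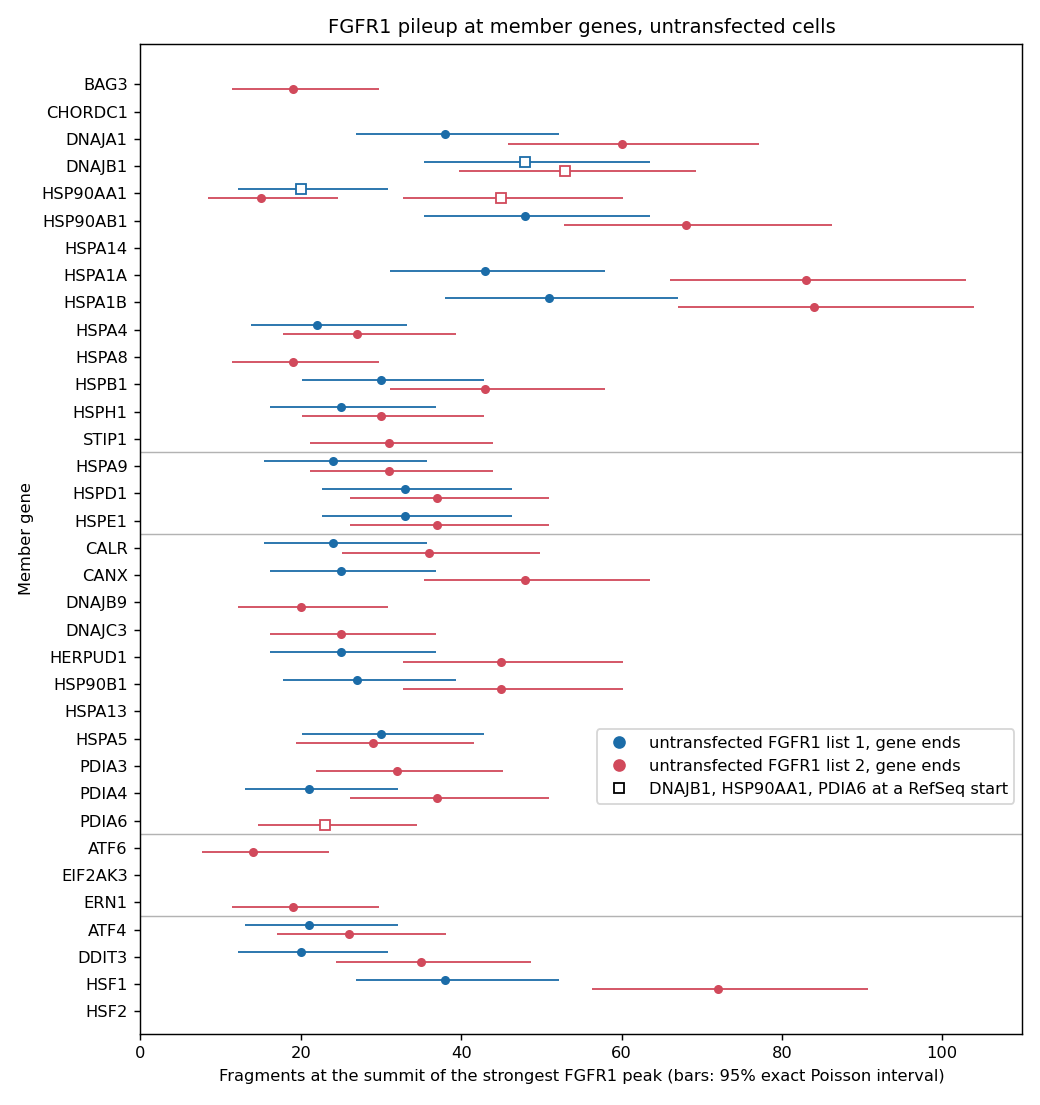
Fragments at the summit of the strongest untransfected FGFR1 peak of each member (x axis) in list 1 and list 2 (blue and red), with 95% exact Poisson intervals as bars; open squares show DNAJB1, HSP90AA1 and PDIA6 at a RefSeq start, and a row without points had no peak. HSPA1A and HSPA1B reach 83 and 84 fragments in list 2, and most other members with a peak lie between 14 and 50 in both lists.

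Every FGFR1 call among the members lay within the Pol II S5P calls. All 19 called members were called for Pol II S5P, as were all but 293 of the 3922 other marked genes called for FGFR1. None of the 4 marked members without it was called for FGFR1, where 5.29% of such other genes were. DNAJB1, among these 4, had both at a RefSeq start inside the gene. Among genes with H3K4me3, H3K27ac and Pol II S5P, 19 of 30 members, or 63.3%, were called beside 47.2% of the others; at RefSeq starts it was 20 of 29 (69% beside 46.5%). Split at the members' median Pol II S5P fold in list 1, which was 13, FGFR1 was called at 15 of 17 members at or above it (88.2%) beside 83.6% of other genes in that range, and at 4 of 17 below it (23.5%) beside 21.3%. Both ranges are wide and were set at the members' own median after the data were seen, so folds within them were not matched.

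The strengths were also compared by rank. Over the 34 marked members, with no peak taken as 0, the FGFR1 list 2 fold had a Spearman correlation of 0.83 with Pol II S5P list 1, beside 0.75 over the 13230 other genes. With H3K27ac it was 0.73 beside 0.71, with H3K4me3 0.33 beside 0.65 and with FOXA1 0.46 beside 0.23. These correlations are across genes of the same libraries, which share depth and the copy number of each locus, and carry no test. The median Pol II S5P fold of the members was 13 in list 1 and 10.7 in list 2, against 6.92 and 5.44 at other marked genes, and their median FGFR1 fold was 5 and 6.99, against 0 and 4.55.

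FOXA1 was called at 16 of the 19 FGFR1-called members, and CALR, HSPA5 and HSPD1 were the others. Of the 3629 other FGFR1-called genes with H3K4me3, H3K27ac and Pol II S5P, 2156 were called for FOXA1. Among members with H3K4me3, H3K27ac and Pol II S5P, FGFR1 was called at 16 of 20 with FOXA1 (80%, beside 52.1% of other genes) and at 3 of 10 without (30%, beside 41.4%). At RefSeq starts the counts were 14 of 17 (82.4%, beside 51.5%) and 6 of 12 (50%, beside 41.5%). The FOXA1 peaks of ATF4, HSPA4 and HSPE1 were not at a start, HSF1 had no promoter entry, and DNAJB1 and HSP90AA1 were added. At DNAJB1 and HSP90AA1 the FOXA1 and the strongest FGFR1 peaks were at different starts of the gene. The strongest FOXA1 folds of the members were at HERPUD1 (38.8 and 39.4), HSPA1B, HSP90AA1 and ATF4 (28.8 and 31.5). ATF6, DNAJB9, DNAJC3, EIF2AK3 and HSP90AA1 had FOXA1 and no FGFR1 call at their annotated ends.

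**Figure D3:**
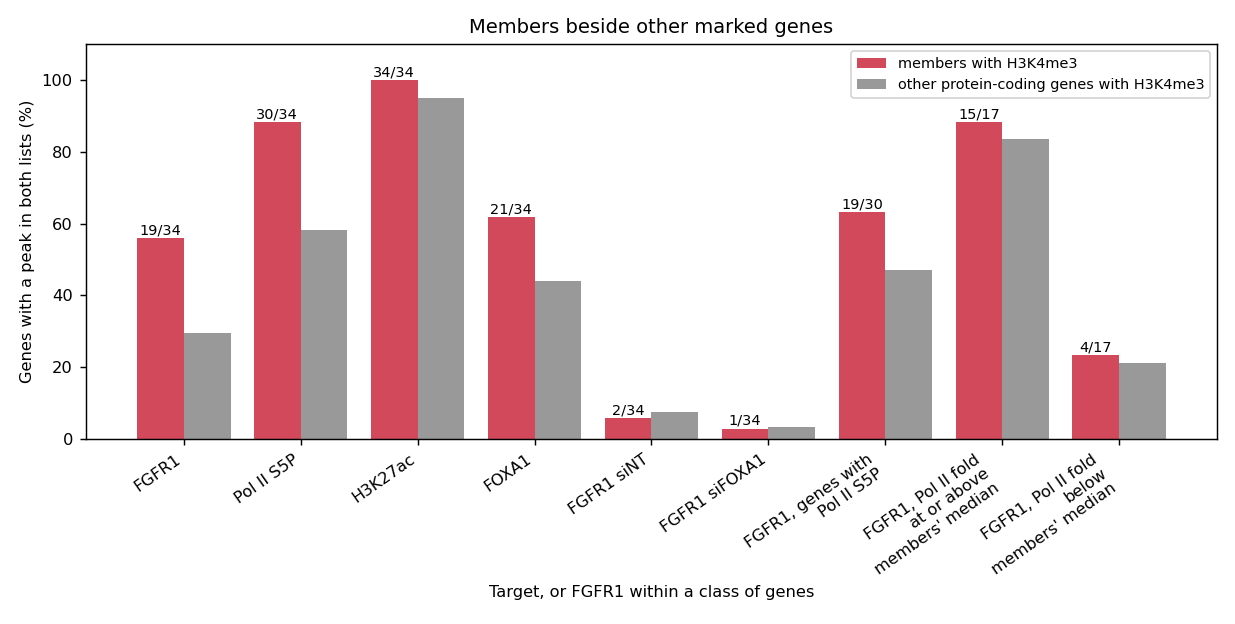
Percent of genes with a peak in both lists (y axis) for each target, and for FGFR1 within classes of genes set by Pol II S5P (x axis); red bars are members with H3K4me3, with counts above them, and grey bars the other protein-coding genes with H3K4me3. The red FGFR1 bar stands at 55.9% against 29.6%, and the bars lie close together once genes are split at a Pol II S5P fold of 13 (88.2% against 83.6%, and 23.5% against 21.3%).

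FGFR1 peaks sat on the start sites. Over members with a peak at a RefSeq start, the FGFR1 summit lay at a median of 0 bp from the nearest start in list 1 (20 genes, 19 of them within 250 bp) and 20 bp downstream in list 2 (28 genes, 25 within 250 bp). Pol II S5P summits lay 43.5 and 38 bp downstream. The FGFR1 and Pol II S5P summits of a gene were a median of 39 bp apart in the lists numbered 1 and 37 bp in those numbered 2. At HSPA1A the FGFR1 summits were 52 and 29 bp downstream of the start and at HSPA1B 66 and 36 bp, past the TATA box and the heat-shock core capitalised above, which lie upstream. At DNAJB1 the summits were 19 and 60 bp upstream of the start; its cores lie at bases 77 to 70 and 47 to 40 upstream, and neither summit falls on one.

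**Figure D4:**
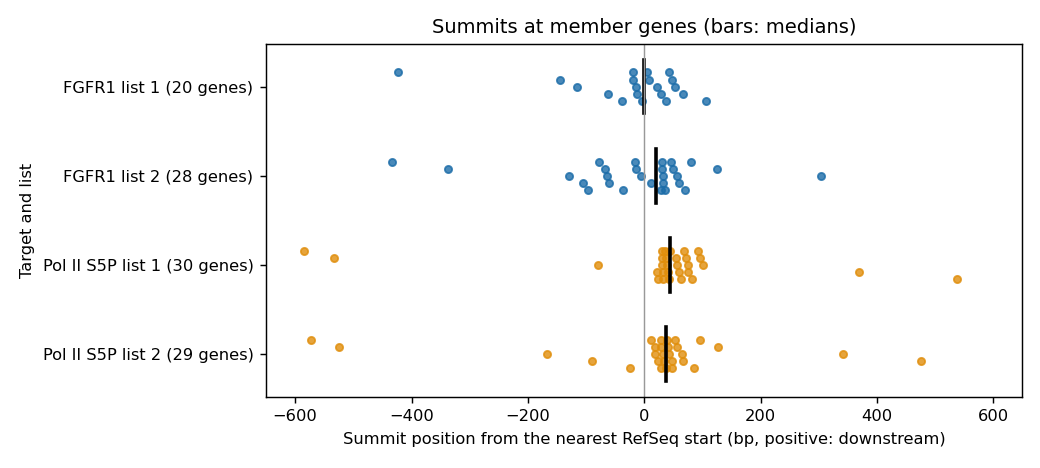
Position of the summit of the strongest FGFR1 and Pol II S5P peak of each member relative to the nearest RefSeq start (x axis, bp, positive downstream), a row for each list and a point for each gene, with black bars at the medians. FGFR1 summits centre on the start (medians 0 and 20 bp) and Pol II S5P summits slightly downstream of it (43.5 and 38 bp).

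After transfection few members had an FGFR1 peak in both lists, as was so of other marked genes. After siNT, FGFR1 was called at HSPD1 and HSPE1 (2 of 34, or 5.88%, beside 7.6% of other marked genes), and after siFOXA1 at PDIA4 (1 of 34, or 2.94%, beside 3.27%). The shared HSPD1 and HSPE1 region had folds of 5.02 and 5.33 after siNT, from 15 and 16 fragments, and no peak in either siFOXA1 list, as was so for 33.6% of other genes called after siNT. PDIA4 had folds of 5.47 and 5 after siFOXA1, from peaks that do not overlap each other, and 3.76 in siNT list 2; 1.62% of other genes called after siFOXA1 had no siNT peak. At RefSeq starts, where 6.73% of other genes were called after siNT and 2.63% after siFOXA1, DNAJB1 was also called after siNT (5.65 and 5.64, from 17 fragments in each list) and had a peak of 5.15 in siFOXA1 list 1. On its own, siNT list 1 had a peak at 8 members (other genes 11.1%) and siNT list 2 at 7 (12.7%). Likewise siFOXA1 list 1 had a peak at 5 (6.16%) and list 2 at 4 (5.1%), so either list left out raised both counts over 1.5 times.

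Single lists gave more. At least 1 siNT list had a peak at 13 of 34 members (38.2% beside 16.1%) and at least 1 siFOXA1 list at 8 (23.5% beside 7.99%). Both conditions had one at 6 genes: CANX, HSP90AB1, HSP90B1, HSPA1A, HSPA1B and PDIA4. Only siNT lists had one at 7, namely CALR, DNAJA1, HERPUD1, HSPA4, HSPB1, HSPD1 and HSPE1 (20.6% beside 9.53%), and only siFOXA1 lists at DDIT3 and HSF1 (5.88% beside 1.38%). All 15 of these genes were called in untransfected cells. The matching share of other genes was not counted. At the annotated ends, no peak in any transfected list was found at 20 of the 35 members, among them HSPA5 and HSPA9. DNAJB1, which had such peaks at a RefSeq start, is also among them. Most other marked genes also had none, and a peak was less frequent among them than among the members. At least 1 siNT list had one at 16.1% of them (members 38.2%), and siFOXA1 lists only at 1.38% (members 5.88%).

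HSPA1B had the highest peak of the members after transfection, a fold of 8.46 in siNT list 2 from 26 fragments (17 to 38.1), but none in siNT list 1 and 4.82 in siFOXA1 list 1. HSPA1A had 4.71 in siNT list 1 and 4.5 in siFOXA1 list 1. HSP90AB1 had 4.7 in siNT list 2 and 4.69 in siFOXA1 list 2, and HSP90B1 6.28 in siNT list 1 and 5.32 in siFOXA1 list 2. Most of these peaks held 11 to 19 fragments, and their Poisson intervals overlapped between the conditions. CANX had 4.39 in siNT list 1 at its upstream end and 4.82 in siFOXA1 list 1 at the other end. A comparison of 2 lists with 2 cannot reach an exact permutation p below 0.333, so no difference between siNT and siFOXA1 was tested. Transfected and untransfected lists also differ in background and were not compared in level.

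**Figure D5:**
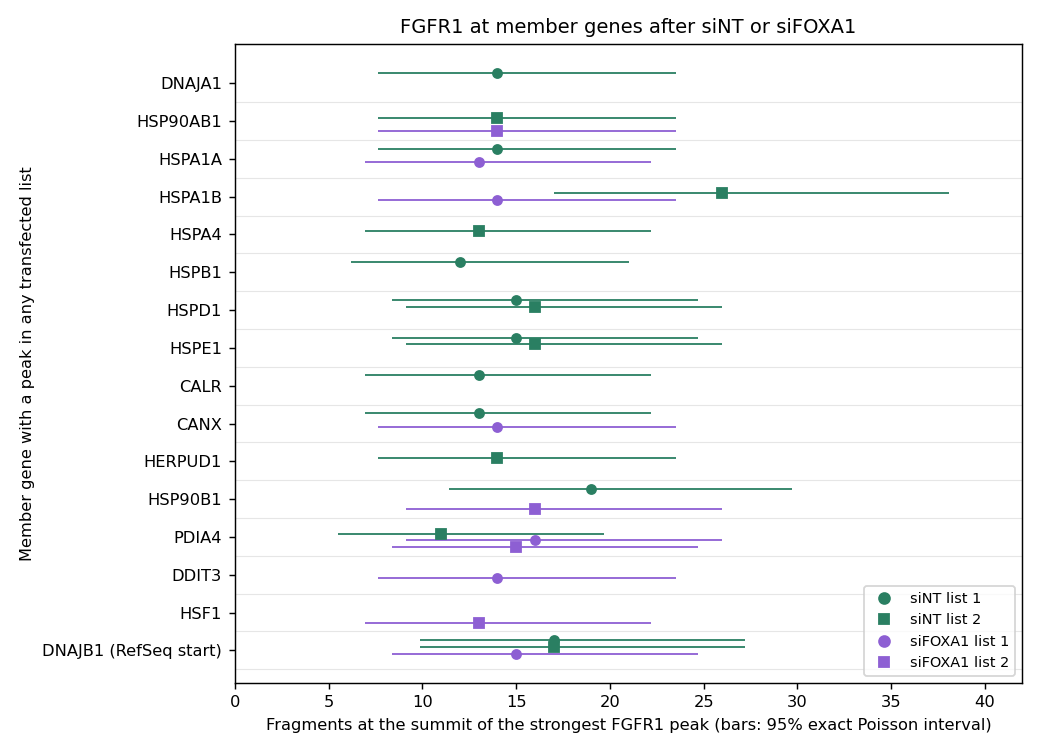
Fragments at the summit of the strongest FGFR1 peak (x axis) after siNT (green) or siFOXA1 (purple), list 1 as circles and list 2 as squares, for the 15 members with a peak in any transfected list and for DNAJB1 at a RefSeq start; bars are 95% exact Poisson intervals and a missing symbol means no peak in that list. Only HSPD1 and HSPE1 have both green symbols at the gene ends and only PDIA4 both purple ones, and the intervals of the conditions overlap where both have a peak.

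Some members lie in stretches crowded with FGFR1 peaks. HSF1 had a mean of 66.5 untransfected FGFR1 peaks per list within 500 kb, HSPA1A and HSPA1B 33.5, CALR 29.5, PDIA4 20 and HSP90AB1 19. Counted in the siNT and siFOXA1 lists, HSF1, HSPA1A, HSPA1B and PDIA4 had over 10 peaks per list on average. Without those 4 genes, 15 of the 19 called members remain, CALR and HSP90AB1 among them. That limit was not applied to the untransfected lists, in which the calls were made. There the called members DDIT3 (16), CANX (14.5), HSPA9 and HSPA4 (11.5 each), and HSPB1 and ATF4 (11 each) also had over 10. So did DNAJB1 (11.5), ATF6 (11) and ERN1 (10.5), which were not called at their annotated ends. CHORDC1, HSPA13 and HSF2 had 0 within 500 kb and HSPA8 0.5. The part of local peak density in the calls was not tested.

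Members with a heat-shock core fell on both sides of the FGFR1 call. Of the 13 members with a core, 10 were called for FGFR1 at a start, not always the start whose window holds the core. Of all 32 members with a promoter entry 20 were, beside 29.9% of other marked genes. Matches that overlap were counted separately, as at CHORDC1, HSPA8, HSP90AB1, DNAJA1, HSPD1 and HSP90AA1. CHORDC1, with 6 cores, had no FGFR1 peak and HSPA8, with 4, had it in list 2 alone. HSP90AB1, also with 4, and DNAJA1, HSPD1 and HSP90AA1, with 3 each, were called. The FGFR1 summits of HSP90AB1 lay by another start (44247101) than the one whose window holds its cores (44247943). The same was so of CANX in list 1. HSPA1A and HSPA1B, with 1 each, were called with folds of 10 and 18.7 and of 11.8 and 18.9. Of the 5 genes with the ER stress element, CALR, CANX, HSP90B1 and HSPA5 were called and PDIA6 was not. A match is letters in a window and says nothing of whether HSF1 or ATF6 was bound.

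Of 63 further genes of these pathways, listed by name, 61 had H3K4me3. FGFR1 was called at 13 of 31 genes of heat shock and cytosolic or mitochondrial folding (41.9%) and at 9 of 30 ER stress genes (30%), beside 29.6%. P4HB, the prolyl hydroxylase subunit that is also a disulphide isomerase, had folds of 12.1 and 18.9, beside 11.8 and 18.9 at HSPA1B. The collagen chaperone gene SERPINH1 (HSP47) had 10 and 14.2, CREB3 7.05 and 13.1, DNAJA3 6.37 and 11.8, and HSPA6, an inducible HSP70 with a near-identical copy (HSPA7), 5.91 and 14.2. HSPA1L had the peaks of HSPA1A.

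After transfection 4 of the 61 were called for siNT (6.56%, beside 7.6%) and 3 for siFOXA1 (4.92%, beside 3.27%). SERPINH1 had folds of 10.7 and 7.21 after siNT and 7.07 and 5.94 after siFOXA1, P4HB 5.96 and 5.64 then 8.04 and 5.94, and CREB3 5.02 and 7.21 then 7.07 and 5. HSPA6 had 5.34 and 6.58 after siNT and no peak after siFOXA1. HSPA6 had no Pol II S5P peak in either list, unlike every called member. XBP1, the factor downstream of IRE1, had FGFR1 in list 2 alone, at 5.77.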

How the data were processed

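ChIP-seq peak lists, 2 per group, were analysed as deposited. Bowtie2, SAMtools, Picard, MACS2 and hg38 are named in the submitters' processing notes; versions, settings and the handling of reads from near-identical copies are not given in the sources used here. Each list the authors deposited gives, per peak, a score (not used here), a fold enrichment (a linear ratio of summit pileup to background), a −log10 p-value and a −log10 q-value. Replicate numbers follow the labels, although peak names inside the untransfected FGFR1 lists give the other number and those of the FOXA1 lists give FOXA2. Peaks on chromosomes 1 to 22 and X were used.

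Gene ends came from RefSeq (GRCh38.p14). A gene was called when both lists of a group had a peak overlapping 1 kb to each side of either end. Folds of the FGFR1 lists lay on a regular grid, (pileup + 1)/(background + 1), which gave the fragments at a summit and their exact Poisson intervals. RefSeq promoters (250 bases before to 50 after each start) matched 32 of 35 members; HSPA14, HSF1 and PDIA3 had no entry. Motifs were searched on both strands. Counts at RefSeq starts, of HSPD1 and HSPE1 as a single region, outside crowded stretches and within ranges of Pol II S5P fold were chosen after seeing the data. The members, gene lists and rules were chosen with earlier results of these data known. All members could be named, with the 6 highest-ranked FGFR1-called genes of the further list and those called after siNT; XBP1 was named after its values were seen. Alternatives were windows of 500 bp and 3 kb, a −log10 q of at least 5, the summit in the window, overlapping peaks, each list left out, other backgrounds and a comparison by replicate number. Overlap scoring was tested on simulated data. Python 3.11.15, pandas 2.3.3, scipy 1.17.1 and matplotlib 3.10.9 were used.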

Additional observations from a re-analysis of the deposited data

How the results depend on the processing

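Of 107 alternative values for 12 results, 88 stayed within 1.5 times the reported count (or inside the interval of the background share) and 19 moved. The 19 members called for FGFR1 became 19 to 28 with either list left out, the 3 mitochondrial genes stayed at 3, the ER genes numbered 6 to 9 and the cytosolic genes 7 to 11. Pol II S5P gave 30 to 31 and FOXA1 22 to 23, and H3K4me3 and H3K27ac 34. The share of other genes called, 29.6%, was 28.4% with a window of 500 bp, 31% with 3 kb, 24.3% at a −log10 q of at least 5, 47.2% among genes with H3K4me3, H3K27ac and Pol II S5P and 19.7% over all protein-coding genes; it ran from 29.4% to 61.8% with a list left out, the highest without FGFR1 list 1. At a −log10 q of at least 5 no member was called after siNT (0), after siFOXA1 (0), or after siNT and not siFOXA1 (0), and with overlapping peaks required siFOXA1 also fell to 0. Leaving out a list gave 7 to 8 members after siNT, 4 to 5 after siFOXA1 and 2 to 5 after siNT and not siFOXA1. The numbers that siNT and siFOXA1 lists share were not shown to pair them: compared within a replicate number as a block, 6 members (number 1, 17.6% beside 6.3% of other marked genes) and 5 (number 2, 14.7% beside 8.56%) had a peak after siNT and not after siFOXA1, against 2 over both lists (5.88% beside 4.65%). Peaks of transfected cells at the members mostly rest on under 20 fragments, so a missing peak there is not evidence of absence.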
